A study of Canis lupus familiaris with 6 samples.

Results

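Pre-mRNA splicing was examined through 54 protein-coding genes chosen by name: 11 SR proteins (SRSF), 2 SR-like TRA2 proteins, 17 heterogeneous nuclear ribonucleoproteins (HNRNP), 2 U2AF proteins, 8 subunits of the SF3a and SF3b complexes (SF3), 10 small nuclear ribonucleoprotein genes (SNRP) and 4 CLK kinases. They were taken from 29822 annotated genes by symbol alone, and all 54 passed the count filters. HNRNPA1, HNRNPC, SF3A3 and U2AF1 had no row under those names and were not analysed here. Poly(A) RNA came from CMM10, a melanoma line from a dog, grown in hypoxia (3 libraries) or in normoxia (3 libraries). The labels name no other agent or genetic change, and state no oxygen level or duration. They do not say that replicates were separate cultures, so the spread between libraries may be technical.

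Splicing begins when the U1 particle pairs with the start of an intron and U2AF and the SF3b-bearing U2 particle mark its end and branch point. SR proteins bind exons and promote their inclusion, while many HNRNP proteins oppose it or bind within introns. CLK kinases phosphorylate the arginine and serine rich tails of SR proteins in the nucleus and thereby release them from nuclear speckles. In human and mouse cells, many genes of splicing factors, CLK1 among them, keep some introns in polyadenylated nuclear RNA, which is why exon and intron reads are set against each other here.

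The libraries held 27272709 to 28804337 gene reads under hypoxia and 23196647 to 27012866 under normoxia, and 23.9% to 25.2% of them under hypoxia and 23.6% to 25.1% under normoxia were intron reads. Of the 8 melanocyte genes, SOX10 (49.5 to 79.6 TPM), DCT and MITF were expressed. TYR was at 0 TPM in every library and TYRP1 at no more than 0.0627 TPM. The others were low, PMEL at 1.31 to 2.43 TPM, MLANA at 0.436 to 3.00 and S100B at 0.477 to 1.21. Immune and endothelial markers summed to no more than 1.33 TPM under hypoxia and 1.06 under normoxia. The 3 keratinocyte genes measured summed to 1044 to 1206 TPM under hypoxia and 362 to 375 TPM under normoxia. KRT14 carried this sum (949 TPM under hypoxia, 193 under normoxia), while KRT10 was lower under hypoxia (52.6 TPM) than under normoxia (75.2 TPM). The 5 fibroblast genes summed to 2836 to 2930 TPM under hypoxia and 2172 to 2303 TPM under normoxia. COL1A2 (2735 TPM under hypoxia, 2108 under normoxia) and COL1A1 (145 under hypoxia, 122 under normoxia) made up nearly all of it. DCN reached no more than 3.27 TPM in any library, PDGFRA no more than 2.59 and LUM no more than 0.297. The part of these markers in the results was not tested. In bulk samples, fewer cells of a type and less RNA per cell cannot be told apart. The hypoxia target CA9 was 13.7-fold higher under hypoxia.

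Under hypoxia the splicing genes were mostly lower, by modest amounts. On gene reads (exon plus intron), 33 of the 54 fell and 5 rose (CLK2, CLK3, TRA2A, SNRPN and SF3B1), while 16 missed the threshold, an adjusted p below 0.05 (edgeR quasi-likelihood, Benjamini-Hochberg over all genes). That is 61.1% lower and 9.26% higher, where 49% of the 15397 genes tested were called, 24.4% lower and 24.5% higher. The median log2 change of hypoxia over normoxia was -0.18 over the members and 0.00 over all genes tested. Changes were small: 19 members fell and 4 rose by over 1.2-fold, and the range ran from -0.85 (SRSF6) to 0.50 (TRA2A). The CPM values of the conditions did not overlap in 38 members, 32 of them lower under hypoxia, where 55.3% of all genes did not overlap, 27.5% wholly lower and 27.8% wholly higher. Together the 54 genes took 1.11% to 1.15% of gene reads under hypoxia and 1.33% to 1.35% under normoxia. CPM are gene counts relative to library size as scaled by TMM, changes are log2 changes ± SE, and levels are mean ± SD (n = 3 per group).

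**Figure D1:**
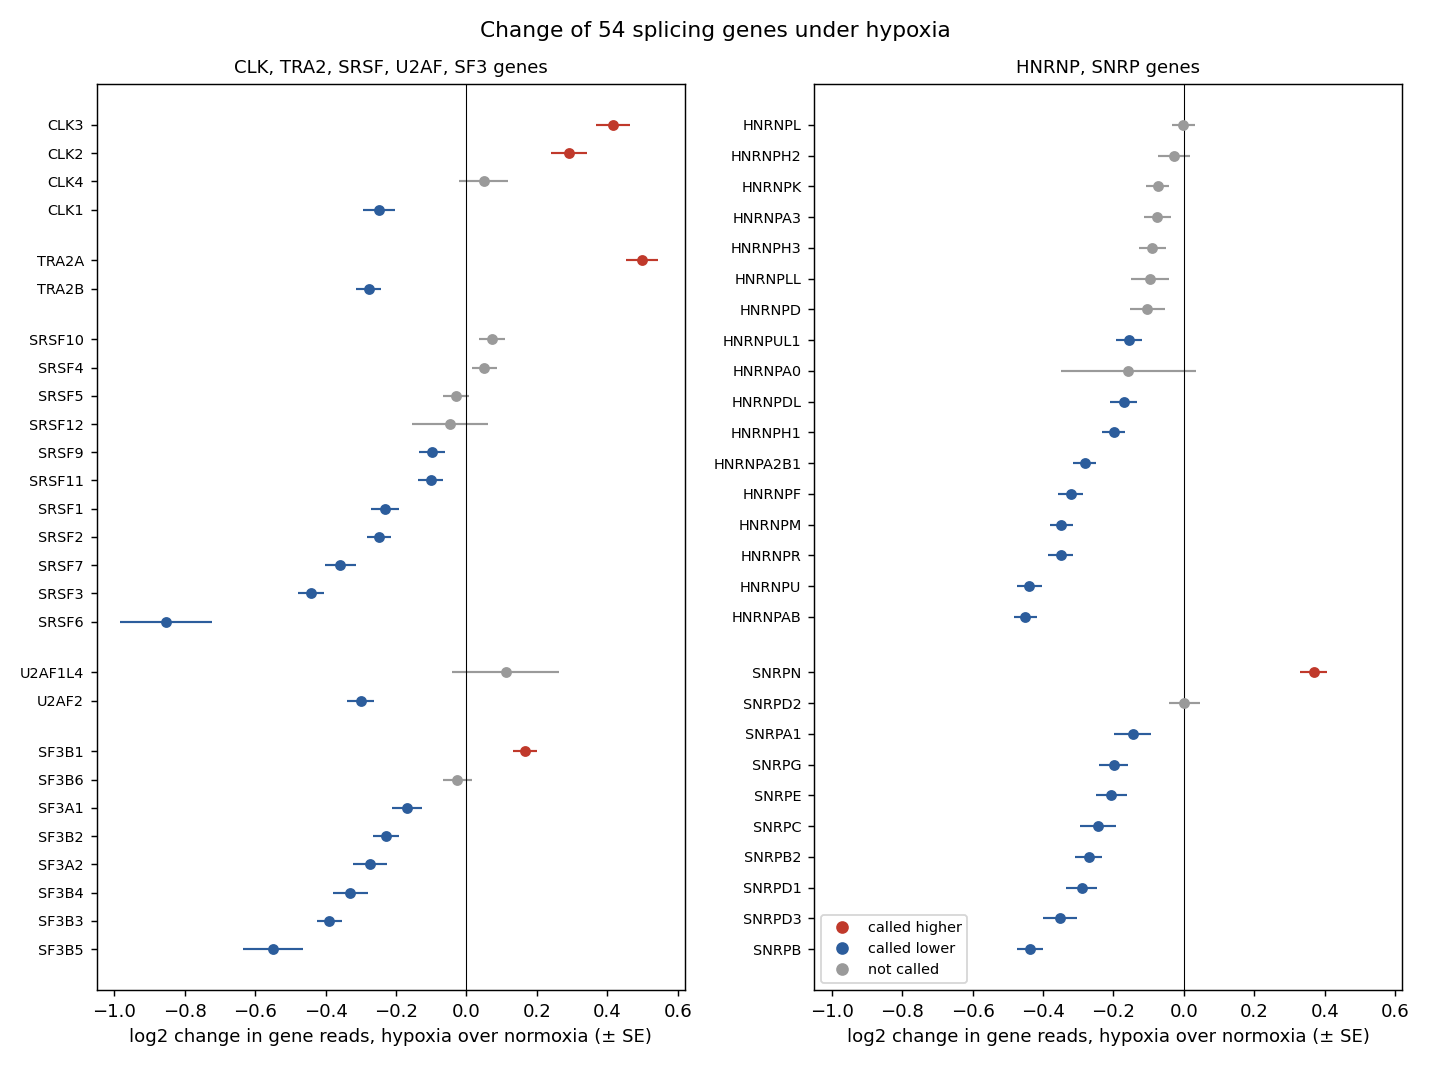
Log2 change in gene reads of each of the 54 genes, hypoxia over normoxia, with bars for the SE of the fit and colours for the call at an adjusted p below 0.05. All but 5 of the called genes lie left of 0, and HNRNP genes show no call to the right.

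The 4 CLK kinases did not move together. CLK3 (chr30:37706645-37719684 of the CanFam3.1 build) had 88.8, 88.0 and 81.1 CPM in the hypoxia libraries, against 66.4, 63.9 and 62.9 CPM in the normoxia libraries. All of the hypoxia values lay higher, and the gene rose by 0.42 ± 0.048 (adjusted p = 1.05e-08), in exon reads (0.36) and in intron reads (0.53). CLK2, another kinase of SR proteins, had 68.4, 70.9 and 65.3 CPM under hypoxia, against 57.2, 56.6 and 53.4 CPM under normoxia. It rose by 0.29 ± 0.051 (adjusted p = 1.58e-05), again without overlap; its exon reads rose (0.36), and its intron reads changed by 0.15 without passing the test.

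CLK1 (chr37:10054237-10082759) went the other way, with 71.4, 72.9 and 73.9 CPM under hypoxia, against 88.2, 83.6 and 87.4 CPM under normoxia. It fell by 0.25 ± 0.045 (adjusted p = 2.66e-05). Reads counted as intron reads made up 58.9 ± 1.78% of CLK1 gene reads under hypoxia and 61.7 ± 3.74% under normoxia. Most reads of this gene thus fell in a class that no source defines. The intron reads fell (-0.30, adjusted p = 4.68e-05), whereas the exon change (-0.14) missed the threshold (adjusted p = 0.0964). The exon and intron changes were not shown to differ from each other (adjusted p = 0.419). CLK4, the nearest relative of CLK1, overlapped between conditions at 39.4, 35.9 and 41.5 CPM under hypoxia and 36.7, 34.3 and 42.0 CPM under normoxia (change 0.05 ± 0.07, adjusted p = 0.604).

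Per exon length, CLK3 and CLK2 were the more abundant kinases, at 56.1 ± 1.59 and 54.6 ± 2.72 TPM under hypoxia. Their normoxia levels were 44.7 ± 2.18 and 43.5 ± 0.444 TPM, a gap smaller than its spread. CLK1 (19.6 ± 0.551 TPM under hypoxia, 22.2 ± 2.69 under normoxia) and CLK4 (19.6 ± 1.75 TPM under hypoxia, 18.8 ± 1.51 under normoxia) were lower than either in both conditions. No CLK model overlaps another gene model.

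The TRA2 pair, SR-like proteins that bind purine-rich exonic enhancers, split in the same way. TRA2A (chr14:37160872-37183274) had 94.6, 99.8 and 99.2 CPM under hypoxia, against 71.4, 67.3 and 69.0 CPM under normoxia. On gene reads this was the highest rise among the 54 genes (0.50 ± 0.045, adjusted p = 5.29e-11). Reads counted as intron reads made up 69.0% of TRA2A gene reads under hypoxia and 64.3% under normoxia. On exon reads TRA2A rose by 0.30, and SNRPN rose most of the 54 genes (0.41). TRA2B (chr34:18638325-18657862), the more abundant paralog at 111 ± 2.01 TPM under hypoxia and 141 ± 1.62 TPM under normoxia, had 201, 189 and 199 CPM under hypoxia, against 241, 237 and 237 CPM under normoxia. It fell to lower values in every hypoxia library (-0.28 ± 0.036, adjusted p = 8.83e-08).

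**Figure D2:**
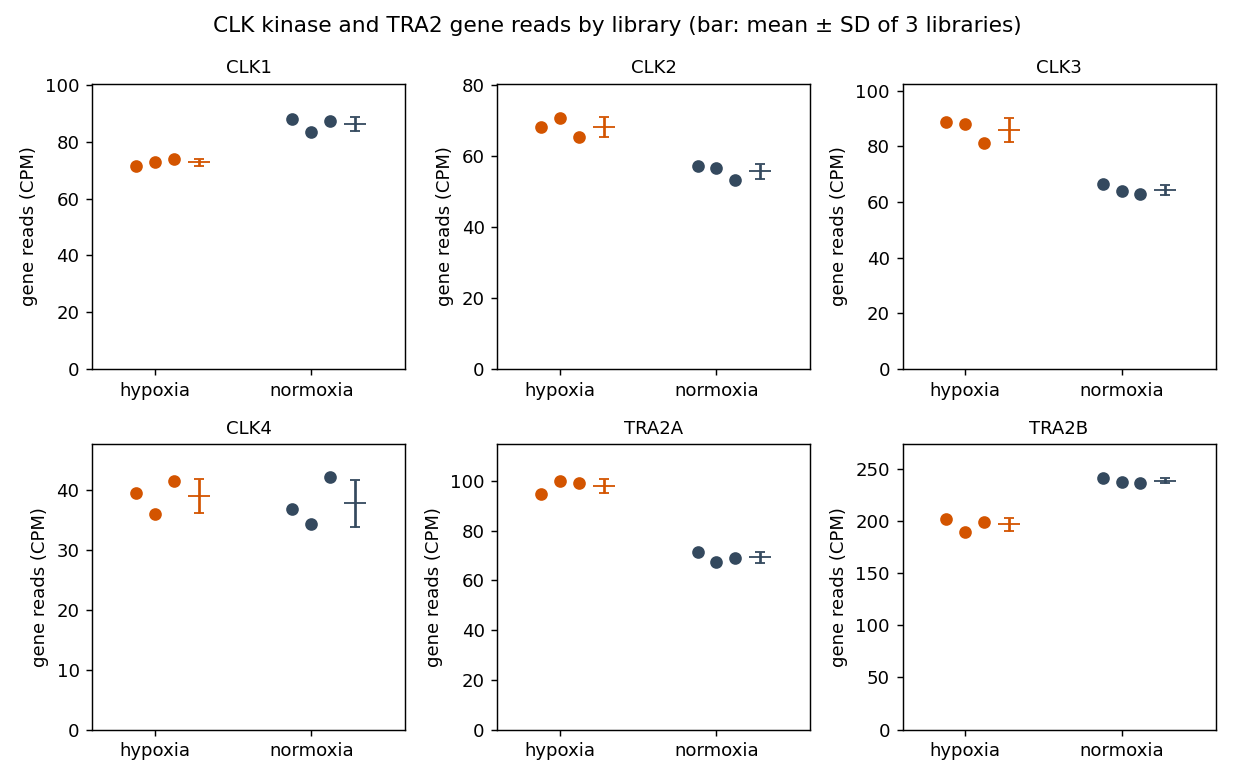
Gene reads in CPM of the CLK kinases and the TRA2 genes in each library, with points for libraries and bars for the mean ± SD of 3. CLK2, CLK3 and TRA2A are higher in all hypoxia libraries, CLK1 and TRA2B are lower, and CLK4 overlaps.

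Among the 11 SR proteins, 7 fell and 0 rose on gene reads, with a median log2 change of -0.10. That is 63.6% lower, where 24.4% of all genes tested were called lower and 24.5% higher. SRSF3 (chr12:5677907-5684446), a small SR protein also involved in mRNA export, had 169, 168 and 176 CPM under hypoxia, against 239, 224 and 233 CPM under normoxia (-0.44 ± 0.037, adjusted p = 8.32e-12). Its close relative SRSF7 had 112, 101 and 103 CPM under hypoxia, against 137, 129 and 139 CPM under normoxia. SRSF7 fell by 0.36, and the other called members by 0.10 to 0.25, SRSF6 apart. The most abundant SR transcript per exon length, SRSF9 (456 ± 11.8 TPM under hypoxia, 491 ± 17.2 under normoxia), changed little. Its CPM values overlapped, at 201, 205 and 196 under hypoxia and 217, 222 and 204 under normoxia. The small fall (-0.10 ± 0.037, adjusted p = 0.0306) no longer passed without hypoxia replicate 1 (adjusted p = 0.0774), hypoxia replicate 3 (0.0981), normoxia replicate 1 (0.106) or normoxia replicate 2 (0.165). The 4 SR genes that did not pass the test ranged from -0.05 to 0.07.

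SRSF6 (chr24:31217184-31218618) had the lowest log2 change of all (-0.85 ± 0.13), at 7.41, 7.99 and 6.23 CPM under hypoxia, against 12.6, 15.8 and 10.7 CPM under normoxia. However, its model of 1435 bp lies wholly inside that of L3MBTL1 on the same strand, and 8.46% of its reads were unique. L3MBTL1 itself fell by 0.31 (adjusted p = 5.74e-09). From the reads counted as unique, a class that no source defines, SRSF6 changed by -0.36 and did not pass the test (adjusted p = 0.432), so its fall cannot be told apart from that of the enclosing model.

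The HNRNP genes gave 9 falls and 0 rises among 17, with a median of -0.16. That is 52.9% lower, against 24.4% lower and 24.5% higher over all genes tested. HNRNPAB (chr11:3355050-3360258) had 327, 327 and 321 CPM under hypoxia, against 443, 455 and 433 CPM under normoxia (-0.45 ± 0.033, adjusted p = 5.44e-13). HNRNPU (chr7:35833988-35843754), a nuclear scaffold protein that binds chromatin-associated RNA, had 503, 512 and 472 CPM under hypoxia, against 649, 695 and 672 CPM under normoxia (-0.44 ± 0.036, adjusted p = 4.09e-12). Both were lower in every hypoxia library. HNRNPA2B1, the most abundant of the 54 transcripts, stood at 1004 ± 19.6 TPM under hypoxia and 1233 ± 40.8 TPM under normoxia (-0.28 ± 0.034 on gene reads, adjusted p = 1.85e-08). HNRNPM, a component of spliceosomes and of exon-silencing complexes, fell by 0.35, and the remaining called genes by 0.16 to 0.35. The 8 HNRNP genes that did not pass the test ranged from -0.16 to 0.00.

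Of the proteins that define the 3' end of the intron, U2AF2, which reads the polypyrimidine tract, fell. It had 170.2, 168 and 164 CPM under hypoxia, against 207, 217 and 195 CPM under normoxia (-0.30 ± 0.039, adjusted p = 9.46e-08). U2AF1L4 stood lower (11.6 ± 1.36 TPM under hypoxia, 11.4 ± 1.91 under normoxia), did not pass (0.11), and lies wholly inside PRODH2. Among the 8 SF3 subunits, 6 fell and 1 rose, with a median of -0.25. These are 75% lower and 12.5% higher, against 24.4% and 24.5% of all genes tested. SF3B3 had 209, 195 and 203 CPM under hypoxia, against 269.7, 264 and 262 CPM under normoxia (-0.39 ± 0.036, adjusted p = 7.35e-11).

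SF3B1, the subunit that holds the branch site, was the SF3 gene that rose and the most abundant of them (292 ± 7.79 TPM under hypoxia, 272 ± 10.6 under normoxia). It had 655, 641 and 679 CPM under hypoxia, against 585, 575 and 599.6 CPM under normoxia (0.17 ± 0.033, adjusted p = 8.70e-05). It rose from the reads counted as unique as well (0.13, adjusted p = 0.00101). SF3B5 fell by 0.55 (adjusted p = 2.27e-06), yet 84.8 ± 0.562% of its reads under hypoxia and 86.5 ± 2.99% under normoxia were counted as intron reads, although its model is a single exon with no intron. From exon reads SF3B5 changed by -0.37 and did not pass (adjusted p = 0.152). The models of HNRNPA0, HNRNPF and HNRNPH2 likewise hold no intron but do hold such reads, so for these 4 genes the class cannot mean introns of the gene.

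Of the 10 SNRP genes, which encode Sm proteins and other proteins of the small nuclear particles, 8 fell and 1 rose, with a median of -0.22. These are 80% lower and 10% higher, against 24.4% and 24.5% of all genes tested. SNRPB (chr24:18674039-18683229), encoding the Sm proteins B and B', had 155, 155 and 153 CPM under hypoxia, against 212, 212 and 201 CPM under normoxia (-0.44 ± 0.037, adjusted p = 1.04e-11). SNRPN (chr3:35837468-35862877), encoding the related SmN and known as an imprinted gene in human and mouse, had 182, 172 and 181 CPM under hypoxia, against 138, 143 and 134 CPM under normoxia. These paralogs thus moved in opposite directions, SNRPN rising by 0.37 ± 0.039 (adjusted p = 1.57e-09) with no overlap between conditions. SNRPE, the most abundant SNRP transcript (762 ± 31.9 TPM under hypoxia, 892 ± 36.1 under normoxia), fell by 0.21, and the other called SNRP genes by 0.15 to 0.35.

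Exon and intron reads were then tested apart. On exon reads, 29 members fell and 5 rose (where 48.2% of 13458 genes were called, 23.8% lower and 24.4% higher), and on intron reads 19 fell and 5 rose (where 34.4% of 13858 genes were called, 15.7% lower and 18.7% higher). No member was called in opposite directions by both, and 14 fell and 4 rose in both. The share of all genes with such joint calls was not computed, so these joint counts have no background. Over the members, the median change was -0.16 on exon reads and -0.16 on intron reads. The falls on intron reads include SF3B5 and HNRNPF, whose models hold no intron, and SRSF6, with 0 unique intron reads. They also include HNRNPAB, which changed by 0.09 from unique reads, and the rises include SF3B1, with 0 unique intron reads. The mean intron share of a member ran from 1.52% (SF3B4) to 86.5% (SF3B5, whose model holds no intron) under normoxia. The median over members of the hypoxia minus normoxia difference in that share was 0.22 percentage points. Single libraries had median shares of 18.0% to 19.3% under hypoxia and 18.1% to 19.6% under normoxia, which overlap.

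The difference between the exon and the intron change of each gene was tested in 1 model over both read classes with a term for each library. Of the 54 genes, 7 had a lower exon than intron change (SF3B1, HNRNPM, SRSF7, TRA2A, U2AF2, SRSF2 and HNRNPU), and HNRNPLL had a higher one. These are 13.0% and 1.85%, where 5.67% of the 12265 genes tested were called, 2.68% and 2.99% in those directions. All but TRA2A had intron shares that did not overlap between conditions. In all, 8 members lay wholly higher and 3 wholly lower in intron share under hypoxia, where 20.6% of genes did not overlap, 8.8% higher and 11.8% lower.

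**Figure D3:**
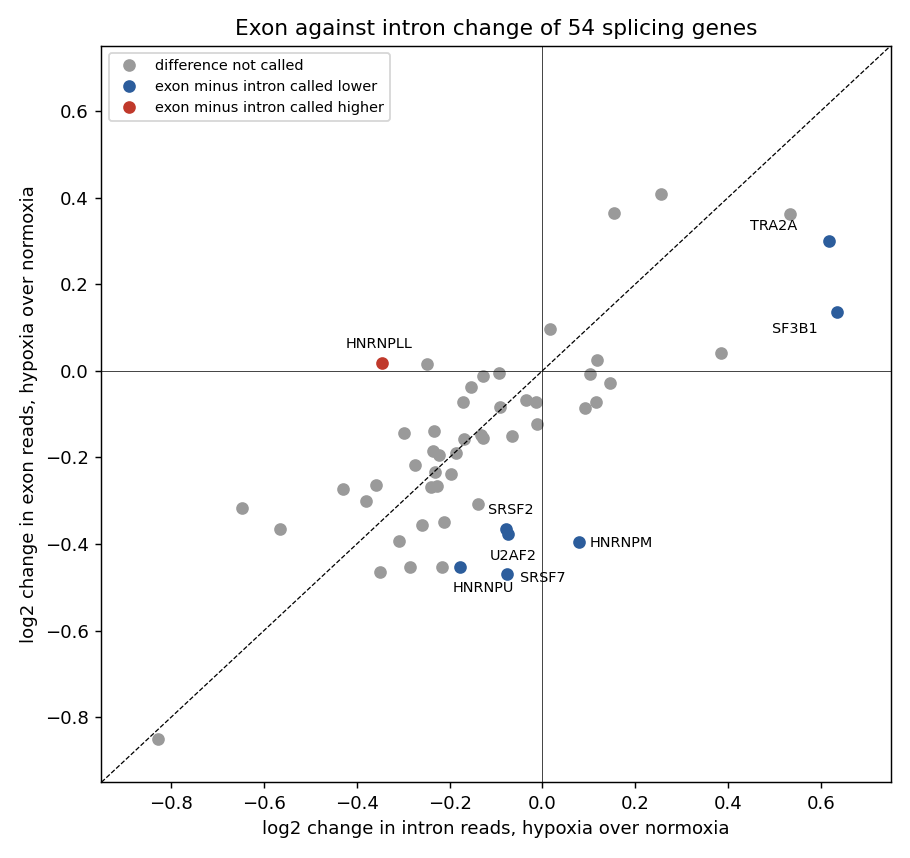
Log2 change in exon reads (vertical) against log2 change in intron reads (horizontal) of the 54 genes, hypoxia over normoxia, with the dashed line where both are equal. The 7 genes called with a lower exon than intron change lie below the line, and HNRNPLL lies above it.

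For SRSF7, U2AF2 and HNRNPU, exon reads fell more than intron reads in the fit and in all 13 alternatives tried, and none of these models overlaps another gene model. SRSF7 (chr17:30809951-30816218), an SR protein with a zinc knuckle, had intron shares of 33.9, 35.0 and 32.8% under hypoxia, against 26.7, 26.4 and 31.4% under normoxia. Its exon reads fell (-0.47), its intron reads did not pass (-0.08), and the difference was -0.40 ± 0.082 (adjusted p = 0.00114). In U2AF2 (chr1:102074790-102091385) the intron share was 29.7, 31.8 and 31.0% under hypoxia, against 25.3, 26.7 and 27.8% under normoxia. Here too exon reads fell (-0.38) and intron reads did not pass (-0.07), a difference of -0.31 ± 0.069 (adjusted p = 0.0035). HNRNPU had few intron reads, 8.97, 8.81 and 9.09% of gene reads under hypoxia, against 7.37, 7.46 and 7.83% under normoxia. Both of its read classes fell, exon reads (-0.45) more than intron reads (-0.18), with a difference of -0.28 ± 0.059 (adjusted p = 0.00158). The fall on intron reads alone was no longer called without hypoxia replicate 3 (adjusted p = 0.0848) or normoxia replicate 2 (0.0816).

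TRA2A rose in both classes, in intron reads by 0.62 and in exon reads by 0.30. Its intron share was 66.5, 71.0 and 69.7% under hypoxia, against 63.6, 62.4 and 66.9% under normoxia, with overlap between the lowest hypoxia and the highest normoxia library. The difference (-0.32 ± 0.087, adjusted p = 0.0175) was lost without hypoxia replicate 2 (adjusted p = 0.148), hypoxia replicate 3 (0.0588), normoxia replicate 1 (0.0649) or normoxia replicate 2 (0.118), with 1 scaling for both classes (0.0729) and with DESeq2 (0.169).

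SRSF2 (chr9:4028482-4030793), outside the rule for named genes and added after its values were seen, had intron shares of 45.1, 44.2 and 49.7% under hypoxia, against 43.8, 40.1 and 40.7% under normoxia. Its difference (-0.29 ± 0.073, adjusted p = 0.0154) was lost without hypoxia replicate 3 (adjusted p = 0.0994), normoxia replicate 2 (0.106) or normoxia replicate 3 (0.0925), and with DESeq2 (0.0946). Of its 2312 bp, 1092 overlap MFSD11 on the other strand, which fell by 0.46 (adjusted p = 3.08e-10). HNRNPLL (chr17:30645676-30684377), known as a regulator of CD45 splicing in T cells, showed the opposite pattern at 25.1, 26.6 and 27.2% under hypoxia, against 31.6, 32.3 and 30.9% under normoxia. Its intron reads fell (-0.35) and its exon reads did not pass (0.02). That difference (0.36 ± 0.096, adjusted p = 0.0155) was lost without hypoxia replicate 1 (adjusted p = 0.0793), hypoxia replicate 2 (0.0537), normoxia replicate 1 (0.0629) or normoxia replicate 2 (0.0903), and with DESeq2 (0.0847).

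**Figure D4:**
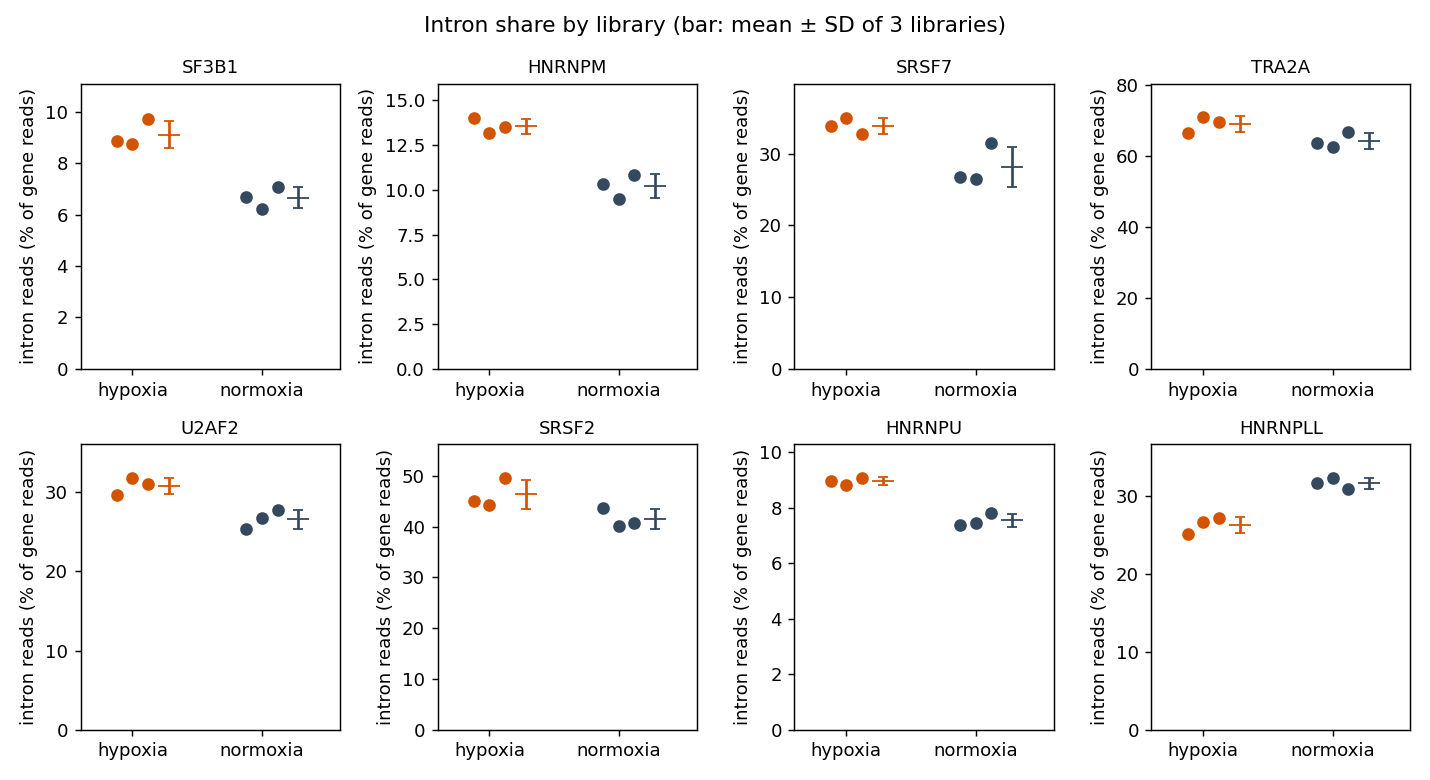
Intron reads as a percentage of gene reads in each library for the 8 genes whose exon and intron changes differed, with points for libraries and bars for the mean ± SD of 3. The share is higher in all hypoxia libraries for 6 genes, overlaps for TRA2A and is lower for HNRNPLL.

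The pair with the lowest exon minus intron values, SF3B1 and HNRNPM, stands on reads that the files do not count as unique. SF3B1 had 1635, 1566 and 1748 intron reads under hypoxia, against 1035, 986 and 1011 under normoxia, and a difference of -0.50 ± 0.061 (adjusted p = 1.74e-07). HNRNPM had 1897, 1746 and 1660 intron reads under hypoxia, against 1651, 1599 and 1525 under normoxia. Its difference was -0.48 ± 0.06 (adjusted p = 3.25e-07). These counts are unscaled. Scaled by TMM, HNRNPM intron reads overlapped, at 281, 257 and 256 CPM under hypoxia and 258, 240 and 255 CPM under normoxia. They were not called as changed, whereas HNRNPM exon reads fell (-0.40 to -0.38 with 1 library left out). In both genes 0 of the intron reads were unique in each library. The SF3B1 model (chr37:6924047-6962896, 38850 bp) lies wholly inside the model COQ10B_1 on the other strand, and HNRNPM (chr20:52993824-53034606, 40783 bp) inside KANK3, also on the other strand. COQ10B_1 averaged 528 CPM under hypoxia and 678 CPM under normoxia (-0.36), and KANK3 74.4 CPM under hypoxia and 55.8 CPM under normoxia (0.42). The library kit does not mark strand, so intron reads of these pairs cannot be told apart. For HNRNPAB, which shares 3014 bp with PHYKPL, the intron change was -0.29 from all reads and 0.09 from unique reads. In all, 17 of the 54 models overlap another gene model.

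**Figure D5:**
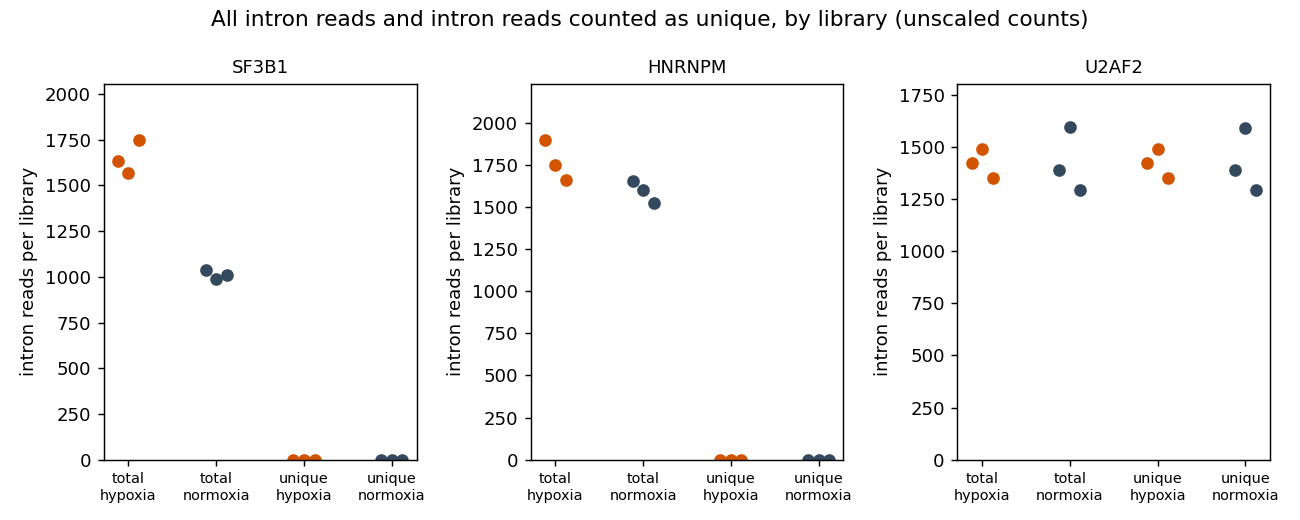
Intron reads per library, as unscaled counts, from all reads and from unique reads in SF3B1, HNRNPM and U2AF2, with a point for each library. SF3B1 and HNRNPM have 0 unique intron reads in every library, while at most 4 intron reads of U2AF2 in any library are not unique.

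Per base, introns of most of these genes were covered far less than exons. In the 50 members with at least 100 bp of intron, the median intron coverage was 3.13% of exon coverage under normoxia, and it was 3.38% over 11857 genes. In 6 members it was over 20% under normoxia, as in 12.5% of genes. SRSF2, which shares 1092 bp with MFSD11 on the other strand, stood at 75.0% under hypoxia and 61.5% under normoxia. SRSF1 stood at 58.2% under hypoxia and 57.2% under normoxia. The other 4 were HNRNPH1 (28.1% under hypoxia, 28.2% under normoxia), which shares 7099 bp with RUFY1 on the other strand, SRSF10 (29.2% under hypoxia, 27.5% under normoxia), SRSF5 (29.6% under hypoxia, 26.2% under normoxia) and CLK1 (20.3% under hypoxia, 23.0% under normoxia). Except for SRSF2, none of these genes had an exon change that differed from its intron change by the test.

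The other genes of the pathway are given from lists chosen with earlier results of these data known. Their counts stand beside shares over all genes tested of 24.4% lower and 24.5% higher on gene reads, 23.8% and 24.4% on exon reads, 15.7% and 18.7% on intron reads, and 2.68% and 2.99% for exon against intron reads. Of 43 tested genes of the spliceosome outside the families above, 32 fell and 3 rose on gene reads, with a median of -0.21. These are 74.4% lower and 6.98% higher. LSM5, a subunit of the ring that binds U6 RNA, fell to 17.0 ± 0.826 CPM under hypoxia, against 26.7 ± 0.495 CPM under normoxia (-0.65 ± 0.074). BCAS2, of the complex that activates the spliceosome, rose to 87.3 ± 2.69 CPM under hypoxia, against 69.4 ± 5.98 CPM under normoxia (0.33 ± 0.052). On exon reads 31 fell and 2 rose and on intron reads 13 fell and 3 rose, and 4 of 42 had a lower and 0 a higher exon than intron change.

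Of 43 tested splicing regulators and their kinases, 20 fell and 4 rose on gene reads, with a median of -0.08. SFPQ, a paraspeckle protein, fell to 185 ± 4.58 CPM under hypoxia, against 265 ± 3.26 CPM under normoxia (-0.52 ± 0.035). Its exon reads (-0.59) fell more than its intron reads (-0.24), a difference of -0.35 ± 0.069 (adjusted p = 7.43e-04). SRRM2, a scaffold of nuclear speckles whose model overlaps several others, rose to 954 ± 12.6 CPM under hypoxia, against 787 ± 10.1 CPM under normoxia (0.28 ± 0.031). Exon reads gave 17 falls and 6 rises and intron reads 11 and 4, while 3 of 43 had a lower and 2 a higher exon than intron change. The 4.65% with a higher exon change compare with 2.99% of all genes, and the rises on exon reads (14.0%) and on intron reads (9.30%) with 24.4% and 18.7%.

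Of 13 tested factors of nonsense-mediated decay, which removes transcripts with early stop codons, 7 fell and 1 rose on gene reads, with a median of -0.17. SMG5, which acts on phosphorylated UPF1, fell by 0.36 ± 0.045; its model lies wholly inside that of LMNA. The UPF1 kinase SMG1 rose by 0.09 ± 0.033 (adjusted p = 0.0168), a call lost without hypoxia replicate 3 (adjusted p = 0.0609), normoxia replicate 1 (0.0554) or normoxia replicate 2 (0.120) and with library size as the only scaling (0.494). Exon reads gave 7 falls and 2 rises and intron reads 1 and 1, and 1 gene had a lower and 0 a higher exon than intron change. On intron reads, 7.69% of the list was called each way, against 15.7% of all genes lower and 18.7% higher.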

How the data were processed

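Per the labels' protocols, oligo-dT selected RNA was made into NEBNext Ultra II libraries and sequenced paired-end on a NextSeq. The deposited counts, per the file headers, are total and unique reads per gene, split into exon and intron reads, and the submitters' processing notes name CanFam3.1 as the build. For aligner and counter, nothing is given in the sources used here. Levels were compared between genes by TPM, deposited as the expression value per the file headers. No source states how intron or unique reads were defined, nor whether a read or a pair counts as 1.

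Genes were filtered with filterByExpr, scaled by TMM and tested with edgeR's quasi-likelihood test (robust), hypoxia over normoxia, on gene, exon and intron reads (15397, 13458 and 13858 genes). Exon against intron reads used 12 columns, with terms for library, read class, and read class by condition, in 12265 genes passing both filters, scaled within each class. The SE is the log2 change over the root of the F statistic. Calls used Benjamini-Hochberg adjusted p below 0.05 over all genes tested. Replicates differed by more than sampling noise, with 4.29 to 13.7 as the chi-square over its degrees of freedom. Intron coverage is intron reads over gene length less exon length, as a percentage of exon reads over exon length. Counts were also simulated at these depths, with noise levels set by hand. At each size 50 genes were changed, among those with a mean of at least 50 exon and 50 intron reads. The exon against intron test (12172 genes) recovered 16% of genes simulated with a log2 difference of 0.32, 82% at 0.58 and 100% at 1.00. The 8 differences called lie between 0.28 and 0.50 in size, where many others could be missed. Recovery at the noise of these libraries was not measured.

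Named genes were the CLK kinases, in each family the 2 called members (mean of at least 1 CPM) with the largest change and the highest TPM, the 4 highest and 4 lowest exon minus intron values among the called, any called in opposite directions by exon and intron reads, and the called extreme of each further list. The members and lists were chosen with earlier results of these data known. Software was R 4.3.3, edgeR 4.0.16, DESeq2 1.42.0 and matplotlib 3.10.9 under Python 3.11.15.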

Additional observations from a re-analysis of the deposited data

How the results depend on the processing

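Counts of members called on gene and on exon reads stayed within 1.5 times under every alternative run (DESeq2, library size as the only scaling, no filter beyond 1 read, unique reads, the replicate block and each library left out). For gene reads they were 5 higher throughout and 32 to 39 lower. On intron reads, library size as the only scaling gave 3 members higher and 32 lower; it moved the median of all genes from -0.01 to -0.11 and gave 3571 genes lower. With it, 35.1% of intron-read calls were higher against 54.4% with TMM, 38.8% against 50.1% on gene reads, 38.9% against 50.6% on exon reads and 67.4% against 52.7% for exon against intron reads. It also gave, on intron reads, 21 spliceosome genes lower, 2 regulators higher and 19 lower, and 0 decay factors higher and 3 lower; 0 decay factors higher on gene and on exon reads; and, for exon against intron reads, 1 spliceosome gene and 4 regulators higher. DESeq2 made fewer calls of exon against intron reads: 174 genes higher and 164 lower, 0 members higher and 5 lower, 2 spliceosome genes lower, 1 regulator higher and 0 decay factors lower. On exon reads, DESeq2 and the looser filter each gave 1 decay factor higher. From unique reads, the intron reads log2 change of HNRNPAB was 0.0892, its sign reversed (adjusted p = 0.692), and SF3B1 and HNRNPM could not be fitted for want of unique intron reads, while HNRNPAB and SRSF4 were added to the calls of exon against intron reads (-0.55 and -0.19). The cause of the other shifts was not tested.

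Leaving out 1 library gave 4 to 6 members higher and 13 to 19 lower on intron reads. All genes then gave 2248 to 2396 higher and 1817 to 1910 lower, against 2588 and 2173 with all libraries. For exon against intron reads, leaving out 1 library gave 0 to 1 members higher and 5 to 7 lower. All genes there gave 228 to 295 higher and 215 to 254 lower. For the lists, leaving out 1 library gave 0 to 1 spliceosome genes higher and 2 to 4 lower and 0 to 2 regulators higher for exon against intron reads. For decay factors it gave 0 to 2 higher on gene and on exon reads, 0 to 1 higher and 0 to 1 lower on intron reads, and 0 to 1 lower for exon against intron reads. The median difference in intron share ran from -0.14 to 0.72 percentage points. Same-numbered libraries did not deviate together (r = -0.0867, 0.0464 and -0.0532), so no shift shared by number was seen. With 3 libraries per group, this cannot show whether same-numbered libraries were handled together. With the number as a block, 5 members were higher and 34 lower on gene reads and 1 higher and 7 lower for exon against intron reads. Intron reads of low genes limit what could be detected: SF3B4 had 14 to 37 per library.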
